A study of Sus scrofa with 6 samples.

Results

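The plasma membrane calcium pump gene *ATP2B2*, the kinase gene *CAMKK2*, the calcium release channel gene *ITPR3* and the store sensor gene *STIM2* were examined for the differentially methylated regions (DMRs) that separate an oxidative from a glycolytic pig muscle. All rows of the DMR table with 1 of these 4 symbols were taken, by the human symbol or, where there was none, by the pig symbol, which gave 5 of the 15633 listed DMRs. Both *ATP2B2* DMRs carry the pig symbol only. Methylated DNA immunoprecipitation sequencing (MeDIP-seq), in which an antibody against methylated cytosine pulls down sonicated DNA, had been performed on the *psoas major* (PMM), a loin muscle in which red oxidative fibres abound, and on the *longissimus dorsi* (LDM), the pale glycolytic muscle of the back. There were 3 libraries of PMM and 3 of LDM, all from female Landrace pigs at 210 days of age, with no treatment in either group.

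The pigs gave both muscles according to the study's methods, but no label ties a replicate number to a pig, and the libraries were compared unpaired. The source name reads *longissimus dorsi* for every library, so the muscle was read from the title of each sample. Title and tissue tag name the same muscle in all 6. Each value is the mean read depth per CpG of a DMR, scaled per library by the authors, and it rises both where CpGs are more methylated and where methylated CpGs lie closer together. The libraries are of whole muscle. Less methylation per cell and fewer cells of a methylated type therefore cannot be told apart, and a table of DMR depths holds no marker by which the muscle or its cell types could be checked.

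Muscle fibres contract when calcium leaves the sarcoplasmic reticulum and relax when pumps remove it from the cytosol. *ITPR3* encodes an inositol trisphosphate receptor, a release channel of the reticulum that opens on receptor signalling, whereas the bulk release that drives contraction runs through the ryanodine receptor *RYR1*. *STIM2* encodes a sensor in the reticulum membrane that detects a fall of stored calcium and opens ORAI channels at the cell surface. *ATP2B2* encodes a pump that expels calcium across the plasma membrane and is best known from neurons and inner ear hair cells of rodents and humans. *CAMKK2* encodes a calcium/calmodulin-dependent kinase that activates CaMKI, CaMKIV and AMP-activated protein kinase. Oxidative and glycolytic fibres are known to differ in how much calcium they release and how fast they remove it.

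The 5 DMRs did not share a direction. The intron DMRs of *ATP2B2* and *CAMKK2* were deeper in PMM, 2.43-fold and 2.11-fold, and the intron DMRs of *ITPR3* and *STIM2* and a second *ATP2B2* DMR just past the end of the gene were shallower in PMM, 3.26-fold, 2.89-fold and 2.43-fold. The table lists only regions that the authors had selected for a difference between these same 6 libraries, and the 4 genes were then singled out for the size of their differences. Levels and differences are therefore a description, with no test. All 5 passed an adjusted p of 0.05 in limma, and so did 99.9% of all listed DMRs. The libraries of the muscles overlapped in none of the 5, and 100.0% of the listed DMRs had no overlap either. All 5 differed by more than 2-fold, as did 53.9% of the table. Folds were computed after adding 1 to each depth, so they come out too small where depth is low. The plot of depth by library shows the 5 DMRs side by side.

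**Figure D1:**
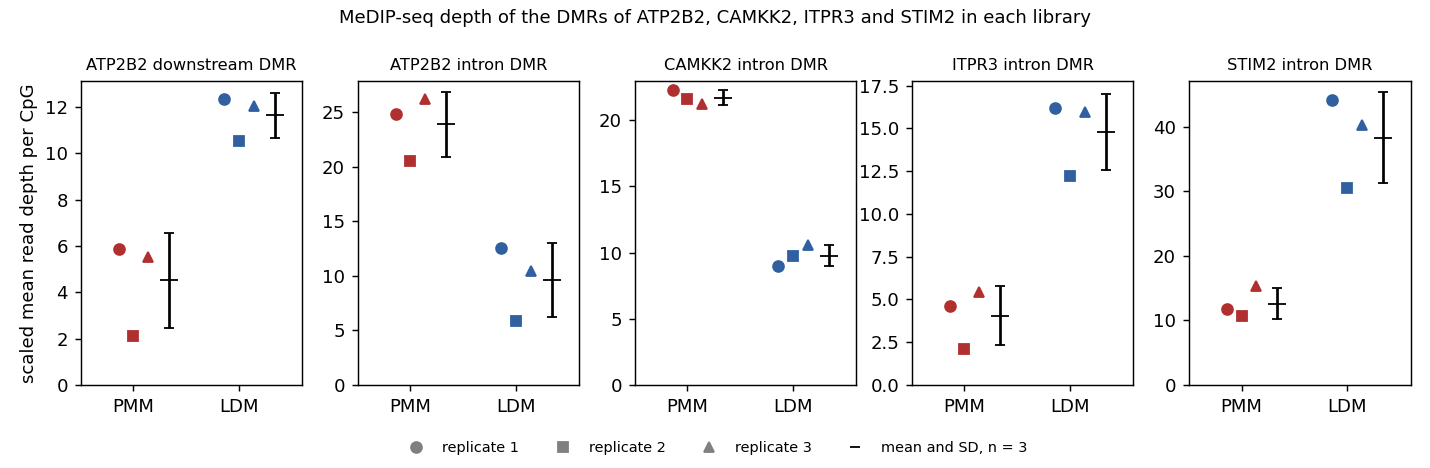
Scaled mean read depth per CpG (vertical axis, a separate scale for each panel, starting at 0) of each DMR in the 3 PMM libraries (red) and the 3 LDM libraries (blue), with the replicate given by the symbol. The bars are the mean and SD of 3 libraries. PMM lies above LDM in the intron DMRs of *ATP2B2* and *CAMKK2*, and below LDM in the *ATP2B2* downstream DMR and in *ITPR3* and *STIM2*.

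*ITPR3* (ENSSSCG00000001518) had the largest difference of the 5. Its DMR lies in an internal intron of transcript ENSSSCT00000001691, on chromosome 7 from 34493583 to 34493689 (Sscrofa10.2), and holds 5 CpGs, the fewest a listed DMR can have, in 107 bp. The depth was 4.60, 2.09 and 5.40 in PMM replicates 1, 2 and 3, against 16.2, 12.2 and 16.0 in LDM replicates 1, 2 and 3. The lowest LDM library was 6.83 units of depth above the highest PMM library. With the authors' scaling undone, the reads summed over the 5 CpGs were 19, 9 and 26 in PMM and 81, 59 and 74 in LDM, where a read lying over several CpGs enters the sum several times. The mean depth was 4.03 ± 1.73 in PMM and 14.8 ± 2.23 in LDM (SD, n = 3 each), a log2 difference of -1.71 (SE 0.31). The release channel DMR was thus the shallowest of the 5 in PMM. Of the 6882 DMRs lower in PMM, 24.7% fell by more than this one, and only 5.14% of all listed DMRs had a lower mean depth over the 6 libraries.

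*STIM2* (ENSSSCG00000008762) had the deepest coverage of the 5 over the 6 libraries, though in PMM the intron DMRs of *ATP2B2* and *CAMKK2* were deeper. Its DMR lies in the first intron of transcripts ENSSSCT00000009587 and ENSSSCT00000023243, on chromosome 8 from 21075852 to 21075947, with 7 CpGs in 96 bp. The depth was 11.8, 10.6 and 15.3 in PMM replicates 1, 2 and 3, against 44.1, 30.5 and 40.2 in LDM replicates 1, 2 and 3. Every LDM library stood at least 15.2 units above every PMM library, the widest gap of the 5 DMRs. The unscaled sums over the 7 CpGs were 68, 64 and 103 reads in PMM and 309, 206 and 261 in LDM. The mean depth was 12.6 ± 2.43 in PMM and 38.3 ± 7.02 in LDM (SD, n = 3 each), a log2 difference of -1.53 (SE 0.19). This sensor DMR was of ordinary depth, since 48.0% of the listed DMRs had a lower mean, and 37.4% of the DMRs lower in PMM fell by more.

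*ATP2B2* (ENSSSCG00000023084) carried DMRs of both directions, 37863 bp apart on chromosome 13 and annotated to the same transcript, ENSSSCT00000013960. The pump's intron DMR, from 73614559 to 73614787 in an internal intron, holds 6 CpGs in 229 bp. Its depth was 24.8, 20.5 and 26.2 in PMM replicates 1, 2 and 3, against 12.5, 5.87 and 10.4 in LDM replicates 1, 2 and 3. The PMM libraries were all higher, by at least 8.05 units, and the LDM libraries were spread more widely than those of PMM. The unscaled sums over the 6 CpGs were 123, 106 and 151 reads in PMM and 75, 34 and 58 in LDM. The mean depth was 23.8 ± 2.93 in PMM and 9.60 ± 3.39 in LDM (SD, n = 3 each), a log2 difference of 1.28 (SE 0.26). Among the 8751 DMRs higher in PMM this was a large gain, exceeded by 9.80% of them.

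The other *ATP2B2* DMR, from 73576606 to 73576695, lies within the 2 kb window downstream of the transcript and at a CpG island shore, and holds 6 CpGs in 90 bp. Its depth was 5.86, 2.13 and 5.54 in PMM replicates 1, 2 and 3, against 12.3, 10.5 and 12.04 in LDM replicates 1, 2 and 3. All LDM libraries were higher, by at least 4.68 units, the narrowest gap of the 5 DMRs. The unscaled sums over the 6 CpGs were 29, 11 and 32 reads in PMM and 74, 61 and 67 in LDM. The mean depth was 4.51 ± 2.07 in PMM and 11.6 ± 0.965 in LDM (SD, n = 3 each), a log2 difference of -1.28 (SE 0.33). This is a shallow region, as 2.10% of the listed DMRs had a lower mean depth, and a moderate loss, as 59.9% of the DMRs lower in PMM fell by more. It is also the only one of the 5 annotated to a shore, and none of the 5 lies in a CpG island or a promoter.

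Within single libraries the 2 *ATP2B2* DMRs stood in a different proportion in each muscle. The intron DMR had 4.24, 9.64 and 4.72 times the depth of the downstream DMR in PMM replicates 1, 2 and 3, and 1.01, 0.557 and 0.866 times its depth in LDM replicates 1, 2 and 3. The DMRs were thus similar in depth in LDM replicates 1 and 3, less so in LDM replicate 2, and far apart in PMM. Both are part of what chose the gene, and no test was made of this ratio.

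*CAMKK2* (ENSSSCG00000009815) had the smallest difference and the closest replicates. Its DMR lies in the first intron of transcript ENSSSCT00000010758, on chromosome 14 from 33190985 to 33191146, with 5 CpGs in 162 bp. The depth was 22.3, 21.6 and 21.2 in PMM replicates 1, 2 and 3, against 9, 9.74 and 10.6 in LDM replicates 1, 2 and 3. All PMM libraries of the kinase gene stood at least 10.6 units above all LDM libraries. The unscaled sums over the 5 CpGs were 92, 93 and 102 reads in PMM and 45, 47 and 49 in LDM. The mean depth was 21.7 ± 0.552 in PMM and 9.77 ± 0.785 in LDM (SD, n = 3 each), a log2 difference of 1.08 (SE 0.17). Of the DMRs higher in PMM, 22.7% rose by more.

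The spread between replicates differed among the 5 DMRs and between the muscles. In PMM the SD was 45.8% of the mean for the *ATP2B2* downstream DMR, 42.8% for *ITPR3*, 19.3% for *STIM2*, 12.3% for the *ATP2B2* intron DMR and 2.54% for *CAMKK2*. In LDM it was 8.29%, 15.05%, 18.3%, 35.3% and 8.04% in the same order. The medians over all listed DMRs were 11.8% in PMM and 11.6% in LDM. The SE of the log2 difference was larger than that of 92.8% of all listed DMRs for the *ATP2B2* downstream DMR and of 91.5% for *ITPR3*, the 2 with the lowest mean depth over the 6 libraries. Replicate 2 was the lowest PMM library in 4 of the 5 DMRs and the lowest LDM library in 4 of the 5, *CAMKK2* being the exception in both muscles. Over all listed DMRs, replicate 2 was the lowest of PMM in 36.2% and the lowest of LDM in 41.7%. Among the DMRs lower in PMM, the direction of 3 of the 5, these shares were 57.0% in PMM and 59.3% in LDM. Without PMM replicate 2, the *ITPR3* difference was -1.39 and that of the *ATP2B2* downstream DMR -0.91. Without LDM replicate 2, the *ATP2B2* intron difference was 0.99. The directions held in these cases, in regions selected for this difference.

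Among the properties that the choice of genes did not use, CpG density separated the gains from the losses, and so did length. The DMRs that were higher in PMM had 2.62 CpGs per 100 bp (*ATP2B2* intron) and 3.09 (*CAMKK2*), and those that were lower had 4.67 (*ITPR3*), 6.67 (*ATP2B2* downstream) and 7.29 (*STIM2*). The same order runs through the whole table. When all listed DMRs were divided into 4 equal classes from sparse to dense, 93.9%, 76.1%, 37.1% and 16.7% of them were higher in PMM. The *ATP2B2* intron and *CAMKK2* DMRs belong to the sparsest class and share its common direction, and the *STIM2* and *ATP2B2* downstream DMRs belong to the third class and share the direction of 62.9% of it.

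*ITPR3* did not share the common direction of its class. It belongs to the second class, in which 23.9% of 3917 DMRs were lower in PMM, and 364 of those 937 fell by more. When a smooth trend on CpG density was subtracted from each library, its difference was -1.85, against -1.71 without the subtraction. *STIM2* kept a difference of -0.78 (1.71-fold) and stayed past the threshold. The differences of the *ATP2B2* intron DMR (0.42, 1.34-fold), *CAMKK2* (0.25, 1.19-fold) and the *ATP2B2* downstream DMR (-0.61, 1.52-fold) kept their sign but no longer passed, while 57.0% of all listed DMRs did. The trend was fitted to the same selected DMRs, so passing or not passing is a description and no test of the 5. The part of density in their differences was not tested. The gains, at 229 bp (*ATP2B2* intron) and 162 bp (*CAMKK2*), were also longer than the losses. The losses were 107 bp (*ITPR3*), 90 bp (*ATP2B2* downstream) and 96 bp (*STIM2*) long. With 5 to 7 CpGs in each DMR, density and length could not be told apart. The plot of difference against density places the 5 among all listed DMRs.

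**Figure D2:**
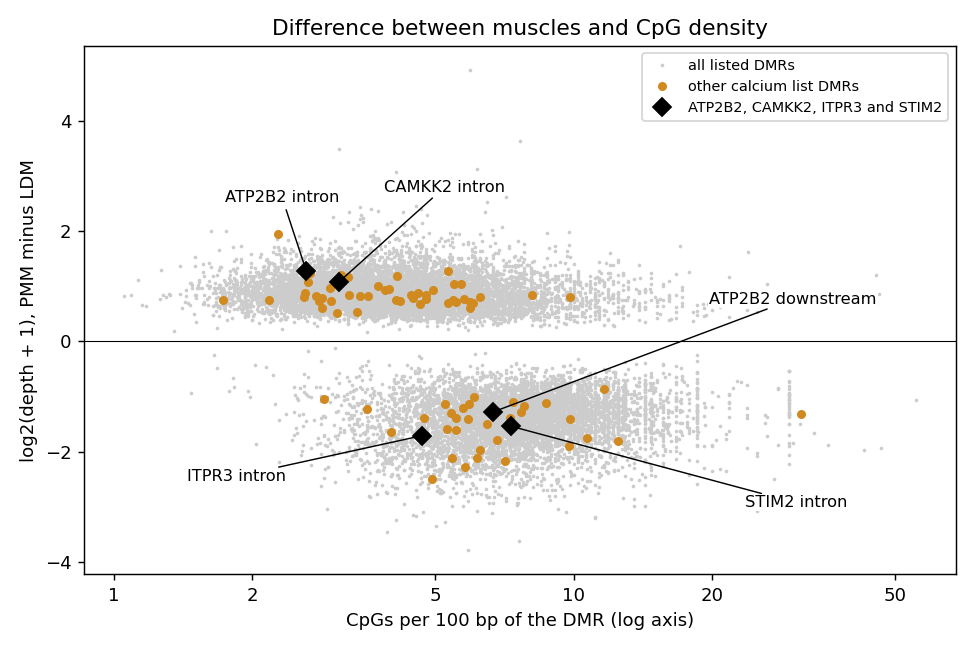
Difference in log2(depth + 1) between PMM and LDM (vertical axis) against CpGs per 100 bp (horizontal log axis) for all 15633 listed DMRs (grey), the other DMRs of the calcium list (orange) and the 5 DMRs of the 4 genes (black). Gains are more frequent at low and losses at high density, and *ITPR3*, at 4.67 CpGs per 100 bp, is the sparsest of the 3 losses.

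The neighbourhood of the 5 DMRs was also mixed. The 2 *ATP2B2* DMRs were each other's nearest. No listed DMR lay closer to any of the 5 than 33347 bp, the distance from *STIM2* to an intergenic neighbour that was higher in PMM by 0.69 on the log2 scale. Both neighbours of *CAMKK2*, 85909 and 63322 bp away and intergenic, differed by -1.88 and -1.32, against the direction of *CAMKK2* itself. Both neighbours of *ITPR3*, 199487 and 146390 bp away, were lower in PMM as *ITPR3* was, by -1.39 in an intergenic DMR and -1.48 downstream of *LEMD2*. Within 1 Mb, *ITPR3* had 27 other DMRs of which 15 were higher in PMM, *CAMKK2* 19 of which 7 were higher, *STIM2* 17 of which 13 were higher, and the *ATP2B2* intron DMR 9 of which 3 were higher. None of the 5 DMRs was therefore part of a stretch in which all listed DMRs within 1 Mb moved 1 way. The plot of neighbouring DMRs by distance gives each of them.

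**Figure D3:**
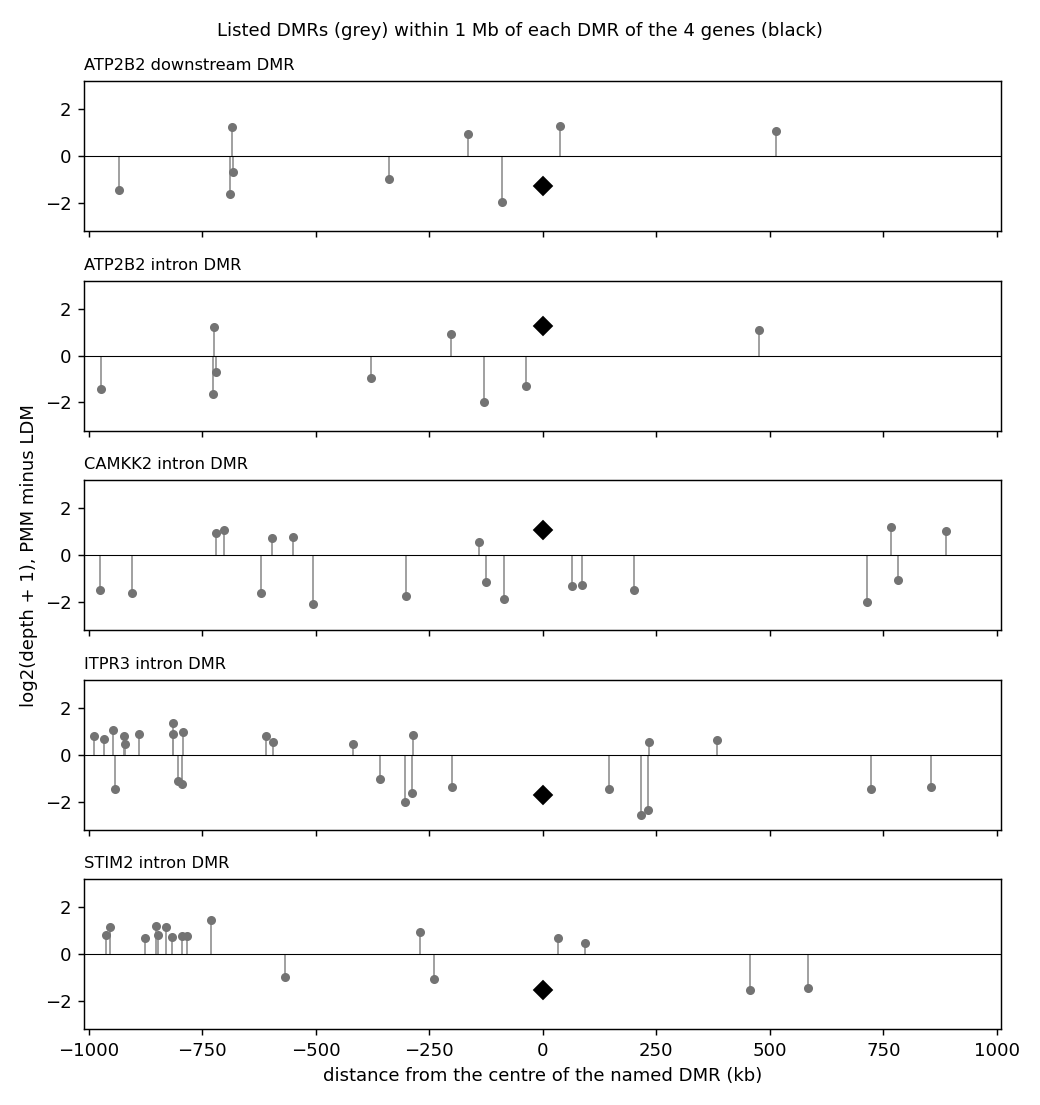
Difference in log2(depth + 1), PMM minus LDM (vertical axis), of every listed DMR within 1 Mb of each of the 5 DMRs (horizontal axis, distance in kb from its centre). Black diamonds are the DMRs of the 4 genes and grey points are the others. Each panel holds DMRs on both sides of 0.

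The genes whose depths over the 6 libraries were most like those of the 4 genes were found among 5696 promoter and gene body DMRs of other named genes, by Euclidean distance of log2(depth + 1). Nearest to *ITPR3* was a DMR of *EBF3* (distance 0.32), and nearest to *STIM2* was one of *EDA* (0.28). The *ATP2B2* intron DMR was nearest to *BCAS1* (0.50), the *ATP2B2* downstream DMR to *SRCIN1* (0.28) and *TEAD4* (0.30), and *CAMKK2* to *KIAA0922* (0.17). *RABGGTA* was among the 3 nearest to both *ITPR3* (0.39) and the *ATP2B2* downstream DMR (0.42). The likeness is one of level and difference over few libraries and is given as a description.

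Relatives of the 4 genes with a listed DMR were pumps, a release channel and a store sensor. The pump gene *ATP2B1* had 5 DMRs, all in introns and all higher in PMM, by 1.68-fold to 2.24-fold. *ATP2B4* had 3 gene body DMRs, again all higher, by 1.83-fold to 1.93-fold. With the *ATP2B2* intron DMR, all 9 gene body DMRs of plasma membrane pumps were thus higher in PMM, against 56.0% of all listed DMRs. Of the 9, 8 lay in the 2 sparser classes, in which 93.9% and 76.1% of all listed DMRs were higher. With the density trend subtracted, 2 of the 9 passed, both in *ATP2B1*. *ATP2B3* had a single DMR, downstream of the gene on chromosome X from 141921891 to 141921972, with depths of 5.45, 2.04 and 6.496 in PMM and 17.3, 18.3 and 20.6 in LDM. This loss (3.73-fold, 9.76 CpGs per 100 bp) matched the *ATP2B2* downstream DMR in position and direction.

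*ITPR2*, the other inositol trisphosphate receptor with a DMR, went the other way from *ITPR3*. Its intron DMR had depths of 104.2, 104.9 and 101.7 in PMM and 68.7, 69.3 and 52.3 in LDM, 1.64-fold higher in PMM. *ITPR1* had no listed DMR. The store sensor *STIM1* had 3 intron DMRs, of which 2 were higher in PMM (1.77-fold and 1.80-fold) and 1 was lower (2.46-fold) and had depths of 7.88, 6.203 and 10.1 in PMM and 20.8, 18.8 and 23.2 in LDM. With the density trend subtracted, the 1.77-fold gain of *STIM1* was at -0.026 and did not pass, while the *ITPR2* gain was at 1.06 and did. *CAMKK1* had no listed DMR. A gene with no listed DMR may hold methylation that did not differ or that was not tested, and the table cannot tell these apart. In the ryanodine receptor gene *RYR1*, 3 of 4 DMRs were lower in PMM, the largest loss being 3.45-fold in an exon. These 3 losses lay in the 2 denser classes, in which 37.1% and 16.7% of all listed DMRs were higher. The gain lay in the second class, in which 76.1% were higher. With the density trend subtracted, the losses were at -1.09, -0.51 and -0.24 and the gain at 0.96. The plot of the gene families sets the differences without subtraction side by side.

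**Figure D4:**
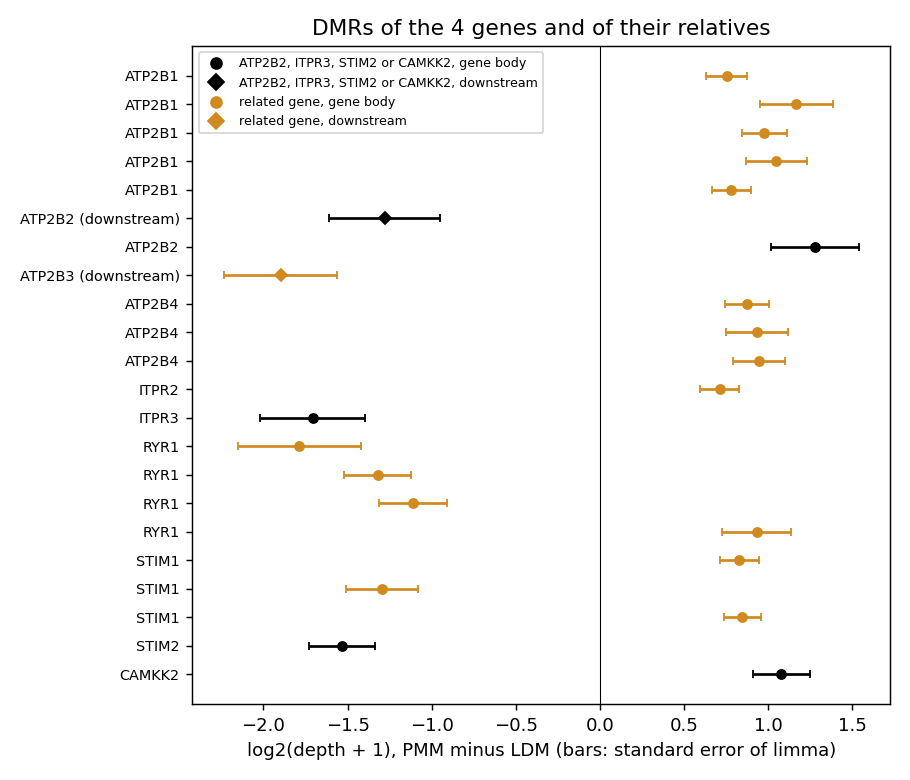
Difference in log2(depth + 1), PMM minus LDM (horizontal axis), of each DMR of *ATP2B2*, *ITPR3*, *STIM2* and *CAMKK2* (black), and of their relatives and *RYR1* (orange). Circles are gene body DMRs, diamonds are DMRs downstream of a gene, and bars are the standard error of limma. The *ATP2B1* and *ATP2B4* DMRs all lie to the right of 0, and both downstream DMRs of the pump family lie to the left.

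To set the 4 genes among others of their pathway, 135 symbols of calcium handling, the 4 included, were grouped by role. Of these, 46 had a listed DMR, 83 DMRs in all, with 78 in gene bodies, 5 downstream and none in a promoter. All 83 passed the threshold, 48 higher and 35 lower in PMM, against 55.9% higher and 44.0% lower of all listed DMRs. The median log2 difference was 0.70 on the list and 0.56 over all listed DMRs. The gains on the list had a median of 1.77-fold, against 1.80-fold over all, and the losses 2.64-fold, against 2.61-fold. By gene, 21 were higher in PMM in every DMR, 17 were lower in every DMR and 8 held both directions, *ATP2B2* among them. In these counts the calcium genes resembled the table as a whole. The gains of *ATP2B2* and *CAMKK2* and the losses of *ITPR3* and *STIM2* were larger than the median gain and loss on the list. The loss of the *ATP2B2* downstream DMR was smaller. Without the 4 genes the list medians were 1.76-fold for gains and 2.62-fold for losses. Because the 4 genes were singled out for the size of their differences, larger values were built into the choice and lend them no support.

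Of the release channels and their partners, 6 DMRs were higher and 5 lower in PMM, with *RYR1* holding both the largest gain (1.91-fold) and the largest loss in a gene body. Of the store sensors and entry channels, 6 were higher and 2 lower, the largest gain being 2.36-fold in an exon of the cation channel *TRPC6* and the largest loss that of *STIM2*. Of the pumps and exchangers, 12 were higher and 7 lower. There the *ATP2B2* intron DMR was the largest gain in a gene body. The largest loss was 5.62-fold in an exon of the mitochondrial sodium/calcium exchanger *SLC8B1* (3.68-fold without PMM replicate 2). The ranks of *STIM2* and *ATP2B2* rest on the differences for which these genes were chosen. Of the calmodulin-dependent kinases, 9 were higher and 7 lower, with 2.32-fold higher in *CAMK2D* and 4.85-fold lower in the death-associated kinase *DAPK1* at the ends, and *CAMKK2* between them. The *DAPK1* depths were 23.5, 3.26 and 20.4 in PMM and 58.8, 59.1 and 69.9 in LDM, so that PMM replicate 2 stood far below the other PMM libraries, and without it the loss was 2.77-fold.

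Of the voltage-gated channel genes, 9 DMRs were higher and 2 lower, with 3.87-fold higher in *CACNA1E* and 3.88-fold lower in *CACNB2*. These DMRs lay in only 4 genes, with most of the gains in *CACNA1E*. Their median density was 3.76 CpGs per 100 bp, within the second class, in which 76.1% of all listed DMRs were higher. Of the calcineurin and NFAT genes, which carry calcium signals to the nucleus, 4 were higher and 7 lower, with 1.67-fold higher in *NFATC2* and 3.03-fold lower in the calcineurin regulator *RCAN2*. Of the mitochondrial uptake genes, *MCUR1* was 1.77-fold higher and *MICU2* was 1.81-fold lower, which was not the largest loss of that role. With the density trend subtracted, 1 of the 4 DMRs of that role passed. Of the storage and buffer proteins, the calsequestrin gene *CASQ2* was 1.74-fold higher, and the DMRs downstream of *S100A1* and *SRL* were lower. The median density of the 83 DMRs was 5.26 CpGs per 100 bp, near the 5.38 of all listed DMRs. In the 4 density classes from sparse to dense, 22 of 24, 15 of 21, 9 of 28 and 2 of 10 list DMRs were higher in PMM. With the density trend subtracted, the gains named here in *TRPC6*, *CAMK2D*, *NFATC2* and *MCUR1* did not pass, and *MICU2* turned to 0.20 without passing.

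The differences of the 5 DMRs under each processing setting are plotted together. Their directions were the same in all settings that gave a value, in regions already selected for this difference. The subtraction of the density trend was the setting that ended calls.

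**Figure D5:**
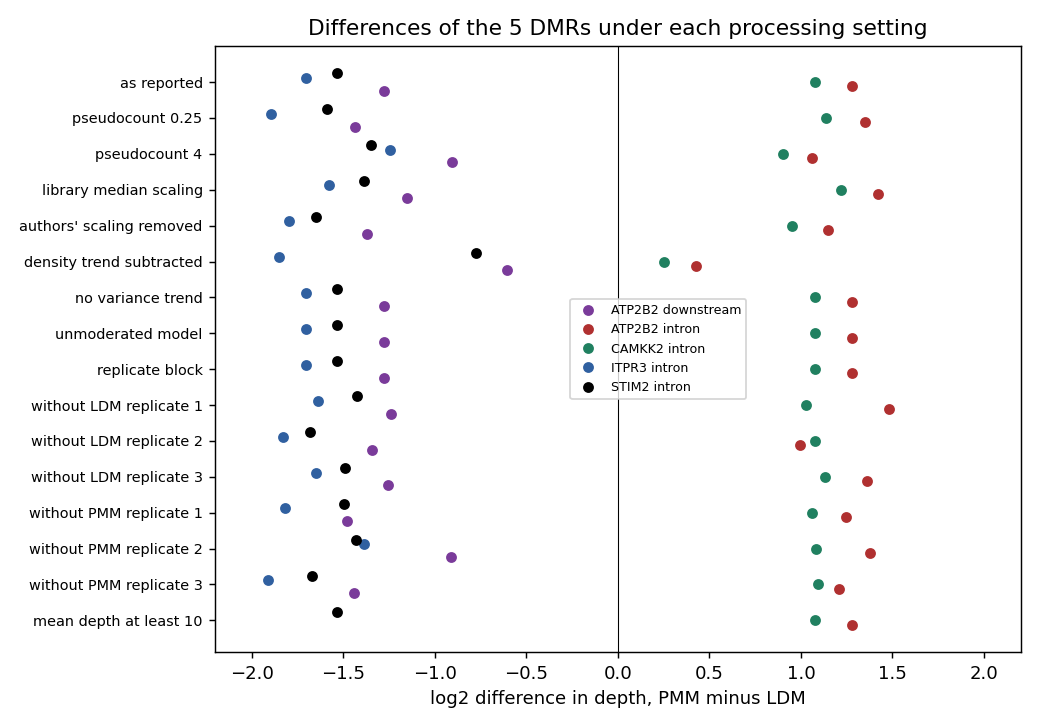
Difference in log2 depth, PMM minus LDM (horizontal axis), of each of the 5 DMRs (colours) under each processing setting (rows). Points left of 0 are lower in PMM. When the density trend is subtracted, the *ATP2B2*, *CAMKK2* and *STIM2* points move toward 0, while *ITPR3* moves to -1.85, away from 0.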

How the data were processed

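According to the study's methods, reads were aligned with SOAP2 to Sscrofa10.2 (also the build in the processing notes of the submitters). By the same methods, CpGs under a read depth of 10 were dropped. Deposited depths nevertheless go below 10 in single libraries, as in the *ITPR3* DMR in PMM (4.60, 2.09 and 5.40). CpGs that differed between the muscles were joined into DMRs of at least 5 CpGs. As deposited, each value is a coverage signal, namely a mean read depth per CpG that the authors had rescaled by a constant for each library. Times the number of CpGs, 100% of the values were whole multiples of a step (tolerance 0.1 steps), which ran from 1 in LDM replicate 1 to 1.21 in PMM replicate 1, so that relative depth ran from 1 down to 0.825. Total reads per library are not known from the table. The median depth over the listed DMRs was 23.8 to 25.4 in PMM and 26.2 to 28.0 in LDM. The authors' averages, p-values and false discovery rates stand in further columns and were not used. Positions are 1-based on Sscrofa10.2.

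The 18176 rows were merged into 15633 DMRs. Log2(depth + 1) was fitted over all of them with limma 3.58.1 in R 4.3.3 (eBayes with a variance trend, muscle as the only term), and p-values were adjusted by the Benjamini-Hochberg method over all DMRs at 0.05. They weigh each difference against the spread between these libraries, in regions already selected for that difference, and so hold no error rate. The fit was run on simulated data in which few regions changed and none had been selected. That setting is unlike this table, so the run checks the code only. Figures were drawn with matplotlib 3.10.9. The density trend was a natural spline with 4 degrees of freedom in each library. The column that marks island shores reads yes in 18174 rows, so shores were taken from the annotation columns. Most genes named outside the 4 are the relatives of each and, per role, the largest gain and loss among promoter and gene body DMRs. *MICU2* is named though its loss is not the largest of its role. Others are named for a downstream DMR, as a neighbour, for likeness in depth or for a sign that turned. The result of 1 gene is not reported here. The 4 genes, the list of 135 symbols and the settings were chosen with earlier results of these data known. Pig gene identifiers come from a table of gene names. Settings tried were other pseudocounts, scalings and variance models, a depth filter, the density trend, a replicate block and leaving out each library.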

Additional observations from a re-analysis of the deposited data

How the results depend on the processing

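With the density trend subtracted, the differences were 0.42 for the *ATP2B2* intron, 0.25 for *CAMKK2* and -0.61 for the *ATP2B2* downstream DMR, with adjusted p of limma 0.188, 0.2498 and 0.0855. These p-values describe regions selected for this difference and are no test of them. After the subtraction 50 DMRs of the list passed, 22 of them higher in PMM, against 83 without the subtraction. Of all DMRs, 8913 passed. In 10 further list DMRs the sign turned, to 0.20 in *MICU2* and to -0.31 in *NFATC2*, -0.25 in *RCAN2*, -0.25 in *SLC8A3*, -0.11 in *DAPK1*, -0.074 in *FKBP1A*, -0.026 in *STIM1*, -0.047 in *CACNA1A* and -0.068 and -0.12 in *CACNA1E*. Of these, *NFATC2* passed the threshold in the new direction. The cause was not tested. With 1 library left out, the differences ran from 0.99 to 1.48 in the *ATP2B2* intron, -1.48 to -0.91 in the *ATP2B2* downstream DMR, 1.03 to 1.13 in *CAMKK2*, -1.91 to -1.39 in *ITPR3* and -1.68 to -1.42 in *STIM2*, and all 83 list DMRs passed each time. Of the 15633 listed DMRs, 15589 to 15604 passed in these fits. Apart from the density trend, no setting ended a call of the 5 DMRs or turned a sign. Every listed DMR was selected for this difference in the same libraries, so the settings lend no support to the 5 or to the list. Library median scaling moved the median difference of all DMRs by 0.15 and undoing the authors' scaling moved it by -0.13. *ATP2B2* downstream and *ITPR3* have no value under the filter on a mean depth of 10, which kept 3 of the 5 DMRs.

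The replicate block left all 83 list DMRs past the threshold and 15606 of all DMRs. The deviations of same-numbered libraries correlated across DMRs at 0.04, 0.24 and 0.02 for replicates 1, 2 and 3, so the numbers were not taken to pair the libraries. Only the libraries numbered 2 correlated best with their own number in both muscles. Depth limits *ITPR3* and the *ATP2B2* downstream DMR most, at 9 and 11 summed reads in PMM replicate 2.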

Other observations

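DMRs within 2 kb downstream of a calcium gene, looked at after their values were seen, were lower in PMM in 4 of 5 cases (*ATP2B2*, *ATP2B3*, *S100A1* and *SRL*), against 44.2% of the 319 DMRs of the table placed downstream of a gene. Downstream of *SRL*, which encodes the reticulum protein sarcalumenin, the depths were 2.18, 3.72 and 8.52 in PMM and 25, 17.2 and 23.5 in LDM. Downstream of *S100A1*, which encodes a calcium-binding protein of heart and skeletal muscle, they were 17.0, 7.75 and 9.35 in PMM and 40.7, 43.2 and 32.5 in LDM. The exception lay downstream of the junctophilin gene *JPH1*, with depths of 24.5, 28.8 and 26.4 in PMM and 14, 11.6 and 6.69 in LDM. The 5 were placed by their position to the calcium gene, whereas the 319 lie in no annotated promoter or gene body of any gene. The median density of the 5 DMRs was 6.67 CpGs per 100 bp, against 5.07 for all downstream DMRs, and the part of density in this count was not tested.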
